A study of Mus musculus with 6 samples.

Results

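The chemokines examined were Cxcl9, Cxcl10, Cxcl12, Cxcl13 and Cxcl16, which belong to the CXC family, lack the glutamate-leucine-arginine (ELR) motif and attract mainly lymphocytes. Their rows were taken by gene symbol, as 5 of the 54532 genes in the count table, and each had enough reads to be tested. The set, like the gene lists below, was chosen with earlier results of these data known, so counts beside all tested genes are descriptive. To examine how loss of the integrin α5 chain affects infarct macrophages, the study profiled RNA of Ly6G- CD11b+ cells from C57BL/6 mouse hearts 7 days after permanent occlusion of a coronary artery, at an age of 12 weeks. The 3 ITGA5 fl/fl libraries came from littermates with loxP-flanked, intact Itga5, and the 3 Myα5KO libraries from LyzM-Cre; ITGA5 fl/fl mice, in which Cre removes the gene wherever the lysozyme M promoter is active. Only the Myα5KO mice carried Cre, so that an effect of the Cre allele and one of Itga5 loss cannot be told apart. The ITGA5 fl/fl libraries are called controls here. The methods describe processing of hearts from individual mice and do not say which heart gave which library, and p-values measure the spread between these libraries.

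Chemokines of this class act through receptors on lymphocytes and on other leukocytes. Cxcl9 and Cxcl10 are induced by interferons in macrophages and bind Cxcr3, which is carried by activated T cells and NK cells. Cxcl12 is made mainly by stromal and endothelial cells, signals through Cxcr4 and is scavenged by Ackr3. Cxcl13 guides B cells through Cxcr5 to lymphoid follicles. Cxcl16 is a membrane-bound chemokine that also takes up oxidized lipoproteins, and it is released by proteases and engages Cxcr6 on T cells. In the infarcted heart these ligands are known as signals that recruit and position leukocytes during healing.

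Total counts ranged from 15424451 to 18419287 per library. Itga5 itself had 567 to 652 CPM (counts scaled to a common library size) in control libraries and 47.0 to 49.9 CPM in Myα5KO libraries, so that the labels held. Lyz2, the lysozyme M gene into which Cre is inserted, had 7063 to 7620 and 3583 to 4064 CPM. The macrophage markers Adgre1, Csf1r and C1qa averaged 1312, 2185 and 2597 CPM in control libraries, whereas Ly6g had 0 to 2 counts per library. Among other granulocyte markers, Cxcr2 was also scarce with 7 to 8 counts, but S100a9 and Csf3r had 118 to 1055 and 2477 to 3401 counts. Transcripts of other cells were also present. Markers of B cells, fibroblasts, endothelial cells and dendritic cells summed to 121 to 256, 1281 to 1982, 307 to 372 and 94.9 to 127 CPM over the 6 libraries. Those of granulocytes summed to 173 to 361 CPM. In such bulk samples fewer cells of a type and less RNA per cell cannot be told apart.

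Cxcl9 and Cxcl10 lie 18559 bases apart on the minus strand of chromosome 5 (GRCm38). Cxcl9 (ENSMUSG00000029417) spans 92321347 to 92328079 and Cxcl10 (ENSMUSG00000034855) spans 92346638 to 92348889, and both are protein coding. The 250 bases before their starts are shown because these neighbours were both higher in Myα5KO macrophages. RefSeq promoter sequences (GRCm38.p6) were found for 4 of the 5 chemokines: Cxcl9, Cxcl10, Cxcl12 and Cxcl13. The sequences read 5′ to 3′ toward the gene, and capitals mark matches to an interferon-stimulated response element (ISRE) or the NF-κB consensus.

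Cxcl10, chr5:92348890-92349139, minus strand: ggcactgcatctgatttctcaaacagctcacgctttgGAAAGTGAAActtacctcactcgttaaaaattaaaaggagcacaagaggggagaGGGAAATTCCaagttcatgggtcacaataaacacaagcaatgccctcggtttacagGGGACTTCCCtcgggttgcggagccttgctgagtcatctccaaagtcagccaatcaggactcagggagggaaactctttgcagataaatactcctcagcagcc
Cxcl9, chr5:92328080-92328329, minus strand: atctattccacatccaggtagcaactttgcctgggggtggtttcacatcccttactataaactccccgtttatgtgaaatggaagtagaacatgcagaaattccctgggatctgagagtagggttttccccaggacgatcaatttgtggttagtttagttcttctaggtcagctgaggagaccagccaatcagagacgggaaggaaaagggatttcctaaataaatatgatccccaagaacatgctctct

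The ISRE was searched as GAAA and GAAA with 2 further bases between them, the interferon γ-activated site (GAS) as TTCNNNGAA and NF-κB by its standard degenerate consensus, on both strands. Cxcl10 held 1 ISRE match, which starts 213 bases before the gene, and 2 NF-κB matches, which start 159 and 103 bases before it, and the 3 matches did not overlap. No match to these letters was present in the Cxcl9, Cxcl12 or Cxcl13 window. Of 32851 mouse promoter windows of this length, 2.98% held the ISRE, 7.02% the GAS and 3.9% the NF-κB consensus. A match of letters describes the sequence and is no evidence of binding. Only exact matches were counted, so a window without a match may still hold a variant of these elements.

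In Myα5KO macrophages 3 of the 5 chemokines were higher and 0 were lower in the edgeR test (adjusted p up to 0.05), against 8.75% of all 14522 tested genes called in either direction, 3.56% called higher and 5.19% called lower. Cxcl9 rose most, followed by Cxcl10 and Cxcl12, whereas the values of Cxcl13 and Cxcl16 did not pass the test. The libraries of the 2 groups did not overlap for 4 of the 5 genes, a separation seen in 28.6% of tested genes (14.9% with higher and 13.8% with lower Myα5KO libraries), with Cxcl16 being the gene whose Myα5KO libraries were the lower ones. The median log2 fold change of the 5 was 0.35, against 0.015 over all tested genes. Each of the 3 calls was lost when certain single libraries were omitted, as given for each gene, and limma on log2 FPKM called 0 of the 5 (3 at an unadjusted p under 0.05). Granulocyte markers also separated the groups, summing to 173 to 218 CPM in control and 234 to 361 CPM in Myα5KO libraries. Of these, 5 of 6 tested genes were higher. Macrophage markers summed to 17330 to 17542 and 15308 to 16147 CPM, with 1 of 10 higher (Fcgr1) and 1 lower. The lower gene was Cd14, which averaged 4748 CPM in control and 3484 CPM in Myα5KO libraries. The other 8 were not called, with log2 fold changes from -0.20 (Itgam) to -0.01 (Mertk). The part of these cells in the chemokine values was not tested.

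**Figure D1:**
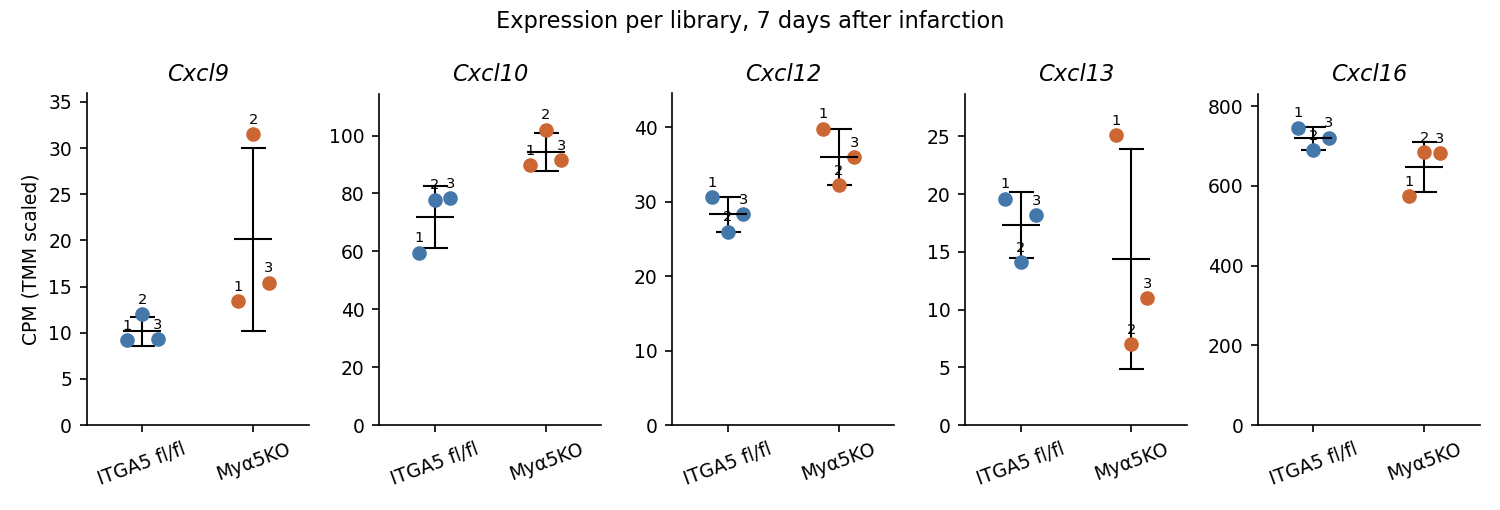
CPM of the 5 chemokines (vertical axes, linear from 0) in 3 ITGA5 fl/fl (blue) and 3 Myα5KO (orange) libraries. Numbered points are replicates, and bars are the mean with the SD. All Myα5KO points lie above the ITGA5 fl/fl points for Cxcl9, Cxcl10 and Cxcl12, and Cxcl13 spreads from 7 to 25.1 CPM in Myα5KO.

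Cxcl9 had 9.17, 12 and 9.32 CPM in control replicates 1, 2 and 3, and 13.4, 31.5 and 15.4 CPM in Myα5KO replicates 1, 2 and 3. Every Myα5KO library was above every control library, and Myα5KO replicate 2 stood far above the other two. Raw Cxcl9 counts were 137 to 204 in control libraries and 252 to 590 in Myα5KO. Mean expression was 10.2 ± 1.57 CPM in control libraries and 20.1 ± 9.94 CPM in Myα5KO libraries (SD, n = 3 each). The fitted log2 fold change was 0.98 (SE 0.26, 1.98-fold with a 95% interval from 1.35 to 2.9, edgeR adjusted p 0.0306). Without Myα5KO replicate 2 it was 0.50 and not called (edgeR adjusted p 0.0643), and the call was also lost without control replicate 1 (0.92, edgeR adjusted p 0.0856) or 3 (0.92, 0.118). DESeq2 did not call Cxcl9 (adjusted p 0.13), nor did limma-voom (adjusted p 0.0655), and the alternatives spanned adjusted p from 0.0053 to 1.

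Cxcl10 had 59.5, 77.8 and 78.3 CPM in the control libraries and 89.8, 102 and 91.5 CPM in the Myα5KO libraries. The groups were apart, with control replicate 1 below the other controls and the Myα5KO libraries close to each other. Means were 71.8 ± 10.7 and 94.5 ± 6.8 CPM (SD, n = 3 each). Cxcl10 rose by 0.39 on the log2 scale (SE 0.10, 1.31-fold with a 95% interval from 1.14 to 1.52, edgeR adjusted p 0.0228). The log2 fold change was 0.28 without control replicate 1 (edgeR adjusted p 0.0562) and 0.33 without Myα5KO replicate 2 (edgeR adjusted p 0.0945), and the other 4 fits with a library left out kept the call. Cxcl10 shares 133 exonic bases, or 5.91% of its exonic length, with Art3 on the opposite strand, and reads there are uncertain because the handling of strand is not stated. Art3 had 35 to 68 counts per library, against 889 to 1915 for Cxcl10.

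Cxcl9 was scarce beside Cxcl10. Its length-scaled level (FPKM) equalled 11.5%, 11.5% and 8.89% of that of Cxcl10 in control libraries and 11.1%, 23% and 12.6% in Myα5KO replicates 1 to 3. Only Myα5KO replicate 2 left the range of the others by a wide margin, and the groups overlapped (exact two-sided permutation p 0.3, where 0.1 is the smallest possible). Cxcl11, the third gene of this cluster, is listed as a polymorphic pseudogene and had 5 to 8 counts in control and 11 to 15 counts in Myα5KO libraries. Its log2 fold change of 0.65 (SE 0.42) was not called (edgeR adjusted p 0.379). Within 100 kb of Cxcl9 or Cxcl10, 0 of the 7 other tested genes (Ppef2, Naaa, Sdad1, Art3, Cxcl11, Nup54 and Scarb2) were called by edgeR, and 1 had an unadjusted p under 0.05 (Naaa, log2 fold change 0.19, edgeR adjusted p 0.122).

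Cxcr3, the receptor of both, had 9.3, 6.69 and 4.94 CPM in control libraries and 9.2, 9.62 and 8.3 CPM in Myα5KO libraries. The groups overlapped through control replicate 1, and the log2 fold change of 0.38 was not called (edgeR adjusted p 0.236). Without that library it was 0.64 and called (edgeR adjusted p 0.0413; alternatives gave 0.0413 to 1). Markers of T and NK cells, cells that carry Cxcr3, summed to 39.5 to 42.1 CPM in control libraries and 47.1 to 53.9 CPM in Myα5KO libraries. Of 7 tested markers 1 was higher (Cd2), and none of the 12 was at 0 in every library. Cd4 alone averaged 19.3 CPM in control and 20.9 CPM in Myα5KO libraries. Cd3d, Cd3e, Cd3g, Cd8a and Trac had 0 to 10 counts per library and were too low to be tested. The part of these cells in the chemokine values was not tested. Ifng had 4 to 11 counts per library and was too low to be tested.

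**Figure D2:**
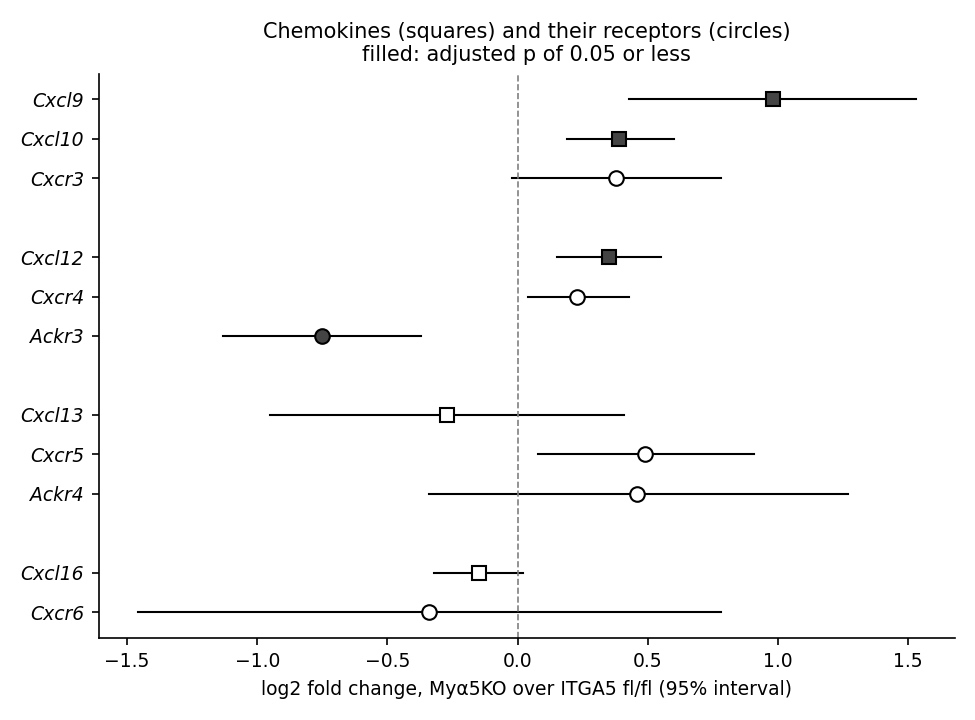
Log2 fold change of Myα5KO over ITGA5 fl/fl (horizontal axis) with its 95% interval for the 5 chemokines (squares) and their receptors (circles), grouped by axis. Filled symbols passed an adjusted p of 0.05: Cxcl9, Cxcl10 and Cxcl12 lie right of 0 and Ackr3 lies left of it.

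To describe the inducers of Cxcl9 and Cxcl10, lists of interferon genes were examined. Of 9 tested genes of the interferon γ pathway, 1 was higher and 1 lower, with a median log2 fold change of 0.06. Jak2, a kinase bound to the interferon γ receptor, fell from 227 to 266 CPM to 134 to 167 CPM (log2 fold change -0.64, SE 0.09, edgeR adjusted p 0.00104). The receptor chains Ifngr1 and Ifngr2 had log2 fold changes of 0.06 and -0.03, and Irf1, a factor that acts on both promoters, had 0.15, and these 3 were not called (edgeR adjusted p 0.622, 0.841 and 0.499).

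Genes induced by interferon γ were mostly higher. Of 17 tested, 13 rose and 1 fell, with a median log2 fold change of 0.37, against 3.56% of all tested genes called higher and a median of 0.015. Summed markers of B cells, T and NK cells and granulocytes had log2 ratios of 0.50, 0.34 and 0.60 and groups that did not overlap. Each gave an exact two-sided permutation p of 0.1, the smallest possible, and an adjusted p of 0.167. The B-cell sums were barely apart, at 164 CPM in the highest control and 165 CPM in the lowest Myα5KO library. The part of these cells in the values of the interferon lists was not tested. Ciita, the master regulator of MHC class II genes, rose by 0.68, and the guanylate-binding protein gene Gbp3 and the immunity-related GTPase genes Irgm1 and Irgm2 by 0.37, 0.44 and 0.54 on the log2 scale (edgeR adjusted p 0.00617, 0.00618, 0.00716 and 0.00998). The exception was Cd274, which encodes the T-cell inhibitory ligand PD-L1. It fell from 149 to 164 CPM in control libraries to 85.7 to 96.1 CPM in Myα5KO libraries (log2 fold change -0.83, SE 0.07, edgeR adjusted p 2.81e-05).

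Among genes of type I interferon sensing and signaling, 6 of 15 tested were higher and 1 was lower, and the median log2 fold change was 0.23. Irf7 and the RNA sensor gene Ddx58 both rose by 0.45, Stat2 by 0.29 and Irf9 by 0.26 on the log2 scale (edgeR adjusted p 0.00142, 0.00707, 0.0194 and 0.0306). Tbk1, a kinase downstream of the sensors, fell by 0.27 (edgeR adjusted p 0.0266), and was not called under scaling by library totals (-0.19). With a library left out, the calls of Tbk1, Stat2 and Irf9 were kept in 2, 3 and 1 of 6 fits. Of 17 genes induced by type I interferon, 12 were higher and 1 was lower, with a median of 0.48. Oas2, Oas1a, Slfn5 and Rtp4, which belong to the antiviral response, rose by 0.65, 0.40, 0.45 and 0.53, whereas Oasl1 fell by 0.61 (edgeR adjusted p 0.000825, 0.00221, 0.00308, 0.00433 and 0.00595). The number higher among interferon γ-induced genes was 6, 4 and 5 without control replicate 1, control replicate 3 and Myα5KO replicate 2, and 9 to 12 in the other 3 fits. For type I interferon-induced genes 7 were called higher without Myα5KO replicate 2 and 8 without control replicate 1. In the type I pathway list 2 to 5 were called higher when a library was left out (2 without control replicate 1 or 3 or Myα5KO replicate 2, and 3 without control replicate 2). On the log2 FPKM scale limma called 3 interferon γ-induced, 6 type I interferon-induced and 1 type I pathway genes higher.

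**Figure D3:**
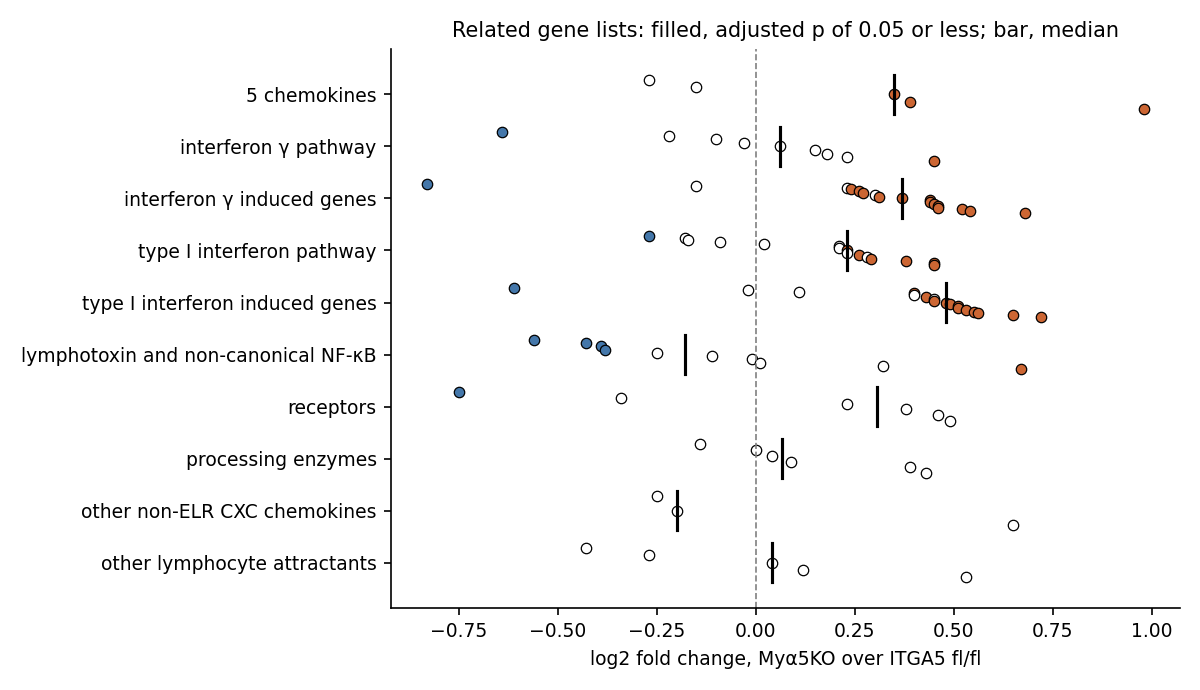
Log2 fold change of Myα5KO over ITGA5 fl/fl (horizontal axis) of each tested gene in the 5 chemokines and 9 related lists (rows). Orange and blue points passed an adjusted p of 0.05 as higher and lower, open points did not, and black bars are medians. The medians of the interferon-induced lists are 0.37 and 0.48, and that of the lymphotoxin list is -0.18.

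Cxcl12 (ENSMUSG00000061353, GRCm38 chromosome 6, 117168535 to 117181367, plus strand, protein coding) had 30.6, 26 and 28.3 CPM in control libraries and 39.8, 32.2 and 36 CPM in Myα5KO replicates 1, 2 and 3. All Myα5KO libraries were higher than all control libraries, although the lowest Myα5KO value was close to the highest control value. Means were 28.3 ± 2.3 and 36 ± 3.8 CPM (SD, n = 3 each). The log2 fold change was 0.35 (SE 0.09, 1.27-fold with a 95% interval from 1.11 to 1.47, edgeR adjusted p 0.0359). Its call was lost without control replicate 2 (0.29) or 3 (0.35) and without Myα5KO replicate 1 (0.27) or 3 (0.35), with edgeR adjusted p of 0.149, 0.104, 0.124 and 0.0695.

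Cxcl12 is known as a stromal product, and its change was set beside markers of stromal cells. Fibroblast markers summed to 1697 to 1982 CPM in control and 1281 to 1647 CPM in Myα5KO libraries. The collagen genes Col1a1, Col1a2 and Col3a1 were the largest parts of this sum. Of the 12 fibroblast markers 0 were higher and 1 was lower by edgeR (Postn), and 8 had an unadjusted p under 0.05. Their log2 fold changes ranged from -0.40 (Postn) to -0.07 (Dcn, not called). Endothelial markers summed to 307 to 332 CPM and 321 to 372 CPM, with 1 of 8 higher (Kdr) and 1 lower (Cldn5). With a library left out, 0 endothelial markers were called higher in any fit and 0 to 1 lower. Mesothelial markers summed to 9.21 to 12.7 CPM and 7.46 to 11.4 CPM, with 0 of 5 tested called (1 at an unadjusted p under 0.05). No marker of the 3 lists was at 0 in every library. Their part in the Cxcl12 value was not tested.

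The receptors of Cxcl12 differed in their values. Cxcr4, the signaling receptor, had 576, 552 and 532 CPM in control and 561, 652 and 739 CPM in Myα5KO libraries. The groups overlapped, and the log2 fold change of 0.23 (SE 0.09) was not called (edgeR adjusted p 0.135). It was called without Myα5KO replicate 1 (0.33, edgeR adjusted p 0.0237) and under scaling by library totals (0.32, edgeR adjusted p 0.0382; alternatives gave 0.0237 to 1). Ackr3, the scavenging receptor, had 10.8, 17.6 and 12.4 CPM in control libraries and 9.25, 6.63 and 8.4 CPM in Myα5KO libraries. The groups did not overlap, and Ackr3 fell by 0.75 on the log2 scale (SE 0.18, edgeR adjusted p 0.0184). Its call was lost without control replicate 2 (-0.52, edgeR adjusted p 0.0885) or Myα5KO replicate 2 (-0.63, edgeR adjusted p 0.0642).

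Cxcl13 (ENSMUSG00000023078, GRCm38 chromosome 5, 95956951 to 95961068, plus strand, protein coding) had 19.6, 14.1 and 18.2 CPM in control libraries and 25.1, 7 and 11 CPM in Myα5KO replicates 1, 2 and 3. Myα5KO replicate 1 held the highest value of the 6 libraries and Myα5KO replicates 2 and 3 the lowest, so that the groups overlapped. The highest Myα5KO library exceeded the lowest 3.59 times, against 1.39 times within control. The log2 fold change of -0.27 (SE 0.32, 0.831-fold with a 95% interval from 0.518 to 1.33) was not called (edgeR adjusted p 0.666). The value depended on single libraries. It was 0.06 without Myα5KO replicate 2, and -0.95 and called without Myα5KO replicate 1 (edgeR adjusted p 0.00591; alternatives gave 0.00591 to 1).

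Cxcr5, the receptor of Cxcl13 on B cells, had 8.77, 15.5 and 16.1 CPM in control libraries and 23.5, 15.9 and 17.9 CPM in Myα5KO libraries. Myα5KO replicate 1 was again the highest library, the groups overlapped, and the log2 fold change of 0.49 was not called (edgeR adjusted p 0.137). B-cell markers summed to 121, 148 and 164 CPM in control libraries and 256, 165 and 190 CPM in Myα5KO replicates 1, 2 and 3. The highest sum was that of Myα5KO replicate 1, and 2 of 8 markers were called higher. Markers of body cavity macrophages, a population known to express Cxcl13, summed to 125 to 334 CPM in control libraries and 83.2 to 101 CPM in Myα5KO libraries, with 7 of 10 lower and 0 higher, and their defining factor Gata6 was at 3.72 and 3.25 CPM on average. None of the markers of these 2 lists was at 0 in every library, and the part of these cells in the Cxcl13 values was not tested. Ackr4, an atypical chemokine receptor, had 7 to 17 counts per library and did not pass the test (log2 fold change 0.46, edgeR adjusted p 0.503).

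Lymphotoxin signaling through the non-canonical NF-κB pathway induces Cxcl13 in lymphoid organs. Of 10 tested genes of this pathway 1 was higher and 4 were lower, with a median log2 fold change of -0.18. The subunit genes Relb and Nfkb2 fell by 0.38 and 0.39, the adaptor Traf3 by 0.56 and the kinase Map3k14 by 0.43 on the log2 scale (edgeR adjusted p 0.00323, 0.00421, 0.00487 and 0.00858). Traf3 restrains this pathway and the other 3 drive it. Ltb, a ligand chain made by lymphocytes, had 2.76 to 3.82 CPM in control libraries and 4.6 to 5.62 CPM in Myα5KO libraries (log2 fold change 0.67, SE 0.18, edgeR adjusted p 0.0362), and its call was kept in 1 of 6 fits with a library left out. The receptor gene Ltbr had a log2 fold change of -0.01 and was not called (edgeR adjusted p 0.968).

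Cxcl16 (ENSMUSG00000018920, GRCm38 chromosome 11, 70453983 to 70459984, minus strand, a protein-coding gene) was by far the most abundant of the 5 chemokines. It had 746, 689 and 721 CPM in control libraries and 574, 684 and 682 CPM in Myα5KO replicates 1, 2 and 3. All Myα5KO values were below all control values, by a narrow margin in replicates 2 and 3. Means were 719 ± 28.7 and 647 ± 63.2 CPM (SD, n = 3 each), and the log2 fold change of -0.15 (SE 0.08, 0.899-fold with a 95% interval from 0.798 to 1.01) was not called (edgeR adjusted p 0.275). Cxcl16 was not called in any of the 18 alternatives, in which its log2 fold change ranged from -0.20 to -0.07.

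Cxcl16 shares 552 exonic bases, or 18.3% of its exonic length, with Zmynd15 on the opposite strand, so reads there are uncertain, and their number was not measured. Zmynd15 had 2655 to 3322 counts per library and was not called (0.03 on the log2 scale, edgeR adjusted p 0.873). The sheddases Adam10 and Adam17 had log2 fold changes of 0.09 and 0.04 and were not called (edgeR adjusted p 0.493 and 0.772). Of all 6 proteases that shed Cxcl16 or trim the other ligands, 0 were called by edgeR, and only Dpp4, which trims Cxcl9, Cxcl10 and Cxcl12, had an unadjusted p under 0.05 (log2 fold change 0.43, edgeR adjusted p 0.13). Cxcr6, the receptor of Cxcl16, had 3 to 15 counts in control and 8 to 12 counts in Myα5KO libraries and did not pass the test (log2 fold change -0.34, 95% interval -1.46 to 0.78, edgeR adjusted p 0.751).

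On the FPKM scale, which accounts for gene length, Cxcl16 stood at 190 to 247 FPKM in the 6 libraries, followed by Cxcl10 at 26.4 to 45.3 FPKM. Cxcl13 had 12.2 to 17.0 FPKM in control libraries and 6.07 to 21.8 FPKM in Myα5KO libraries. Cxcl12 and Cxcl9 were the lowest, with 3.16 to 4.86 and 3.04 to 10.4 FPKM. In control the order Cxcl16, Cxcl10, Cxcl13, Cxcl12, Cxcl9 had no overlap between neighbours except for Cxcl12 and Cxcl9. In Myα5KO, Cxcl9 came before Cxcl12 by the mean, and the libraries of Cxcl13 and Cxcl9 and those of Cxcl9 and Cxcl12 overlapped.

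**Figure D4:**
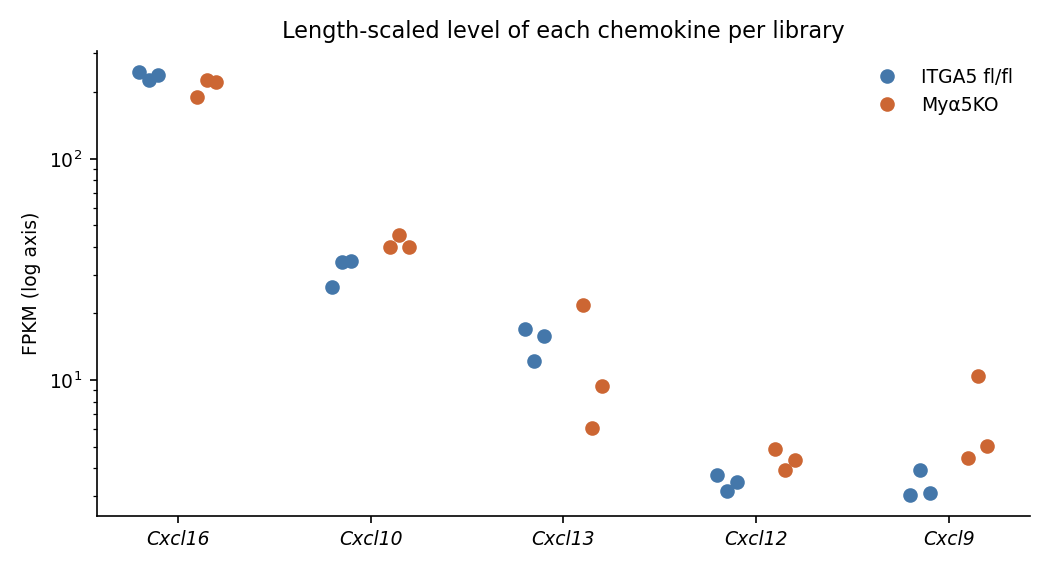
FPKM (vertical axis, log scale) of the 5 chemokines, ordered by level, in each ITGA5 fl/fl (blue) and Myα5KO (orange) library. Cxcl16 at 190 to 247 FPKM is separated from the other 4, and Cxcl12 and Cxcl9 overlap.

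The summed FPKM of the 5 chemokines was 291 ± 9.36 in control libraries and 278 ± 15.8 in Myα5KO macrophages (SD, n = 3 each; exact two-sided permutation p 0.3). Cxcl16 made up 83.1%, 80.9% and 80.7% of this sum in control libraries and 72.8%, 77.5% and 79.1% in Myα5KO libraries. Cxcl10 made up 8.89% to 12.2% in control libraries and 14.2% to 15.5% in Myα5KO libraries. The groups did not overlap for the shares of Cxcl16, Cxcl10, Cxcl9 and Cxcl12 and overlapped for that of Cxcl13. Shares of a library are parts of the same sum, so a change in any of them shifts the others and these separations are not independent. With 3 libraries a group the exact permutation test gave p 0.1 for each of the 4, the smallest it allows (adjusted p 0.125 over 5 shares).

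Other chemokines were examined for comparison. Of the further CXC genes without the ELR motif, Pf4 and Cxcl14 had log2 fold changes of -0.20 and -0.25 and were not called (edgeR adjusted p 0.349 and 0.359), although both were called lower without control replicate 1 (-0.36 and -0.43, edgeR adjusted p 0.0398 and 0.0496; alternatives reached 1), and Cxcl17 had at most 1 count per library. Among chemokines of other classes that attract lymphocytes, edgeR called 0 of 5 tested genes, and 2 had an unadjusted p under 0.05. These were Ccl22, with 10.4 to 15.2 CPM in control libraries and 15.2 to 23.8 CPM in Myα5KO libraries (log2 fold change 0.53, edgeR adjusted p 0.0687), and Cx3cl1, with 7.67 to 9.17 and 5.61 to 6.56 CPM (log2 fold change -0.43, edgeR adjusted p 0.0658). Ccl22 was called higher by DESeq2 (0.52, adjusted p 0.04), under scaling by library totals (0.61, edgeR adjusted p 0.0361), without a count filter (0.53) and without Myα5KO replicate 2 (0.64, edgeR adjusted p 0.0393), and the alternatives ranged in adjusted p from 0.0361 to 1, apart from the fit without a count filter.

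To find genes with a similar pattern, the log2 CPM of each gene was centred on its mean and the root mean square difference from each chemokine was taken over the 6 libraries, among 9314 genes with a mean of at least 100 counts. The nearest genes were Ch25h, Ifi44 and Iglv1 for Cxcl9 (differences of 0.295, 0.297 and 0.318), against a range of 1.77 for Cxcl9 itself. Brat1 and Igtp were among the nearest to Cxcl10 (0.029 and 0.074), and Mfap3, Wrb and Mtif2 to Cxcl12 (0.041, 0.043 and 0.051). Serpina3n, Fkbp10 and Ptx3 were nearest to Cxcl13 (0.330, 0.367 and 0.384), whose own range was 1.83. Mafk, Zfand5 and Sde2 were nearest to Cxcl16 (0.020, 0.024 and 0.026), whose own range was only 0.38. The Iglv1 count is uncertain because this segment belongs to a multigene family.

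**Figure D5:**
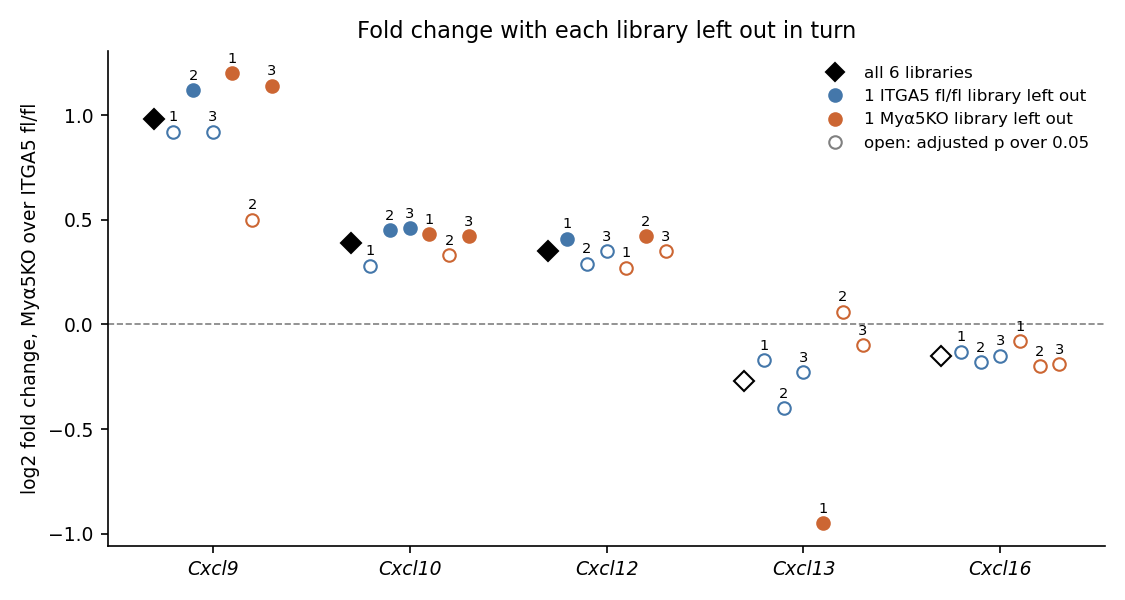
Log2 fold change of Myα5KO over ITGA5 fl/fl (vertical axis) of the 5 chemokines with all 6 libraries (diamonds) and with 1 ITGA5 fl/fl (blue) or Myα5KO (orange) library left out, numbered by replicate. Open symbols have an adjusted p over 0.05. Cxcl9, Cxcl10 and Cxcl12 stay above 0 in each fit, and Cxcl13 ranges from -0.95 to 0.06.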

How the data were processed

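The authors cleaned the 150 bp paired-end reads of adapters and poor bases, aligned them to mm10 (GRCm38.p6) with TopHat2 2.0.9, counted reads per gene with HTSeq 0.6.1 and deposited raw counts and FPKM values for 54532 genes. Handling of strand and multi-mapped reads is not stated. The counts went into a quasi-likelihood fit in edgeR 4.0.16 (R 4.3.3; TMM scaling; default filter, minimum count 10 and total 15; 14522 genes; two-sided; Benjamini-Hochberg adjustment over all genes; no covariate), and a gene is called where its adjusted p does not exceed 0.05. The study's methods name DESeq2 (1.42.0 here), which was run beside limma 3.58.1 and other scalings, filters and thresholds. CPM carry the TMM scaling. Single values were compared with exact permutation tests. Scripts were tested on simulated data.

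The chemokines and gene lists were chosen with earlier results of these data known. Named genes are the chemokines, their receptors, Itga5, Lyz2, called genes of each list (up to 4 per direction by p), the 3 genes nearest in pattern and genes overlapping or within 100 kb. Others were named after their values were seen. Ccl19 and Ccl21a each matched 2 rows, all at 0, and were left out. Sting1 and Cgas were matched through older symbols. Reads carry no molecular identifiers. The edgeR errors and intervals include the spread between libraries. Some genes that this rule names are not reported here.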

Additional observations from a re-analysis of the deposited data

How the results depend on the processing

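Over 90 fits of the 5 chemokines under 18 alternatives, 65 kept direction and call, 23 lost a call, 1 gained one and 1 changed sign. The called chemokines Cxcl9, Cxcl10 and Cxcl12 kept their call in 9, 12 and 10 of 18 alternatives. Cxcl13 and Cxcl16, which were not called, kept direction and stayed uncalled in 16 and 18. Adjusted p ranges leave out the fit without a count filter, which has infinite prior degrees of freedom. With limma on log2(FPKM + 0.1) the log2 fold changes of Cxcl9, Cxcl10 and Cxcl12 were 0.87, 0.40 and 0.33, and with log2(FPKM + 1) they were 0.73, 0.39 and 0.27, and 0 chemokines were called in either, with 3 at an unadjusted p under 0.05. These fits called 142 and 150 genes higher, 306 and 322 lower, and 10 higher and 4 lower among the related lists (33 and 9 in the edgeR test), and the cause was not tested. DESeq2 and limma-voom did not call Cxcl9 (0.98 and 0.88). By construction, an adjusted p of 0.01 left 0 chemokines (3 at an unadjusted p under 0.05), 128 genes higher, 342 lower and 14 related genes higher, and edgeR's test against 1.5-fold left 0 chemokines (1 unadjusted), 1 gene higher, 14 lower and 0 related genes in either direction (1 unadjusted), at log2 fold changes of 0.98, 0.39 and 0.35 for Cxcl9, Cxcl10 and Cxcl12. Scaling by totals only called 1212 genes higher and 518 lower, or 70.1% higher against 40.7%, and moved the macrophage marker sum from -0.15 to -0.07 (log2). Without a count filter 798 genes were higher. With 1 library left out, log2 fold changes ranged from 0.50 to 1.20 for Cxcl9, 0.28 to 0.46 for Cxcl10, 0.27 to 0.42 for Cxcl12, -0.95 to 0.06 for Cxcl13 and -0.20 to -0.08 for Cxcl16. Without 1 library, 1 to 3 chemokines were called in all, with 1 to 2 higher and 0 to 1 lower, and 187 to 420 genes were higher, 429 to 671 lower and 16 to 32 related genes higher. On the CPM scale the share of Cxcl12 rose by 1.14 percentage points, against 0.399 on the FPKM scale.

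The replicate numbers in the titles are shared between the groups, but same-numbered libraries did not deviate together (r of 0.0509, -0.0576 and 0.0434 across genes), and not every library correlated best with its own number. With the number as a replicate block the log2 fold changes of Cxcl9, Cxcl10, Cxcl12, Cxcl13 and Cxcl16 were 0.92, 0.40, 0.35, -0.41 and -0.16, the same 3 chemokines were called, and 464 genes were higher and 717 lower. A further 49 genes were followed under the same alternatives: Itga5, Lyz2, the receptors and the list genes called in the edgeR test. They kept their direction in all 876 fits and their call in 661, with 210 calls lost and 5 gained. Most were chosen because these same libraries called them, so their stable direction was largely fixed by that choice. Scarce transcripts such as Cxcr6, Ackr4 and Ifng were limited by depth.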
